A study of Homo sapiens with 7 samples.

Results

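KARPAS-45 carried 9023 distal RUNX2 peaks that were not called in PER-117 and that lay in chromatin called acetylated in KARPAS-45 alone, out of 42911 RUNX2 peaks of KARPAS-45, or 21.0%. KARPAS-45 and PER-117 are established cell lines of T-cell acute lymphoblastic leukemia (T-ALL), and KARPAS-45 carries a KMT2A rearrangement. RUNX2 and histone H3 acetylated at lysine 27 (H3K27ac) were each mapped by chromatin immunoprecipitation and sequencing in both lines, with 1 library per line and antibody. The culture medium held 20% fetal bovine serum for KARPAS-45 and 10% for PER-117, and the labels give no treatment. Each group is thus 1 library of 1 line, so the lines could not be compared by a test, and every difference below is one between libraries. The peaks described here, called members below, were chosen by the calls of both marks in both lines, on 4 conditions: no overlap of 1 bp or more with a PER-117 RUNX2 peak, a midpoint over 1 kb from both ends of every protein-coding gene, a midpoint inside a KARPAS-45 H3K27ac region, and a midpoint outside every PER-117 H3K27ac region. The absence of PER-117 calls at a member therefore describes the choice and is not a result. Of the KARPAS-45 peaks, 29524 did not overlap a PER-117 peak, 24276 of those were distal, 12999 of those were acetylated in KARPAS-45 and 9023 of those were outside PER-117 acetylation.

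RUNX proteins bind the DNA motif TGTGGT or TGCGGT through the Runt domain, together with the partner subunit CBFB. RUNX2 is best known from bone formation, and its relatives RUNX1 and RUNX3 direct T-cell development, including the choice between CD4 and CD8. H3K27ac is written by the acetyltransferases CBP and p300 and marks active promoters and enhancers, and enhancers often act on genes from a distance or from introns.

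Some members lay at annotated start sites away from the outer ends of their gene, or at the start of a non-coding gene, and there the DNA under the summit can be read from the RefSeq promoter table of GRCh38.p14 (the hg38 build). The summit of 134 members fell within the 250 bases before a start in that table, in 144 windows of 139 genes, 79 of them protein-coding and 60 long non-coding RNAs. The 6 windows below show both forms of the motif and its absence at genes described further on, and were chosen after their values were seen. Capitals mark TGTGGT or TGCGGT or, on the opposite strand, ACCACA or ACCGCA, and each sequence runs 5′ to 3′ along the gene's strand and ends at the base before the start. DSE encodes an epimerase of dermatan sulfate, MEIS1-AS3 is a non-coding RNA antisense to the HOX cofactor gene MEIS1, and PLAGL1 encodes an imprinted zinc finger protein. CD8A encodes the alpha chain of the CD8 co-receptor, SYNE2 the nuclear envelope protein nesprin-2, and NKILA is a non-coding RNA beside PMEPA1.
DSE (chr6:116370697-116370946, plus strand): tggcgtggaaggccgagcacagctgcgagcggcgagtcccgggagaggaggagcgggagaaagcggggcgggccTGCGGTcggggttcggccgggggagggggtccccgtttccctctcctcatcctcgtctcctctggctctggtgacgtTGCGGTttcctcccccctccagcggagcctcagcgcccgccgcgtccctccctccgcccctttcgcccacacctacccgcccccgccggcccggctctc
MEIS1-AS3 (chr2:66433471-66433720, minus strand): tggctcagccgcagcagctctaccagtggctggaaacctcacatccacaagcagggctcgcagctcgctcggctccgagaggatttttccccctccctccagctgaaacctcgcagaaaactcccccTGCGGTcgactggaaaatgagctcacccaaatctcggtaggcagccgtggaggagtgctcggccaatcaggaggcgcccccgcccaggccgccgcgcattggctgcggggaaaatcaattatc
PLAGL1 (chr6:144055263-144055512, minus strand): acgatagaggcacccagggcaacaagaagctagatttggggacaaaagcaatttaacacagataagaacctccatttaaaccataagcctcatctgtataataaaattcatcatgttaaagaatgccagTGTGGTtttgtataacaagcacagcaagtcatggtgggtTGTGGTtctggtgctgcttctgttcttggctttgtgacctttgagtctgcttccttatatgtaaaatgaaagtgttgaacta
CD8A (chr2:86791681-86791930, minus strand): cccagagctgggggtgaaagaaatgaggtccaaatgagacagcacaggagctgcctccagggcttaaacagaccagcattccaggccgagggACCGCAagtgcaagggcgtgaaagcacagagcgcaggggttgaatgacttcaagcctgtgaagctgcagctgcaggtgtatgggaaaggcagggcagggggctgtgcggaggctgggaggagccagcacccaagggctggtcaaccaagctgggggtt
SYNE2 (chr14:63852754-63853003, plus strand): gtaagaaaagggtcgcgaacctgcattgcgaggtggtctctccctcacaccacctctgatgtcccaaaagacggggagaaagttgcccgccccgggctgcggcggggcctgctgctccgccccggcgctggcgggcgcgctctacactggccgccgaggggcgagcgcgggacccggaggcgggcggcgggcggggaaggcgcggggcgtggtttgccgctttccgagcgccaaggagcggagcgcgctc
NKILA (chr20:57709933-57710182, plus strand): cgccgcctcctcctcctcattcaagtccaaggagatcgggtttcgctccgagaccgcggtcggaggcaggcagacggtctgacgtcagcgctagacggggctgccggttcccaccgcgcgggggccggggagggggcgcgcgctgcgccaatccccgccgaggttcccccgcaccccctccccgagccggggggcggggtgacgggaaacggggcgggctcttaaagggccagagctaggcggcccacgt

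The member over the DSE window had a fold enrichment of 26.5, the authors' ratio of ChIP signal over background at the peak, with its summit 104 bases before the start and motifs beginning 176 and 99 bases before it. At MEIS1-AS3 the value was 19.4, with the summit 120 and the motif 123 bases before the start. PLAGL1 had 7.73, a summit at 105 bases and motifs at 121 and 82 bases. The CD8A window had 3.83 with a summit at 217 and a motif at 158 bases, and a second CD8A start, nearer the 3′ end of the gene, had another member at 7.61 and no motif in its window. SYNE2 and NKILA had 11.4 and 15.5 without a match in these 250 bases.

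Either strand held a TGTGGT or TGCGGT in 40 of the 144 windows with a member summit, or 27.8% (Wilson 95% interval 21.1 to 35.6). The share was 25.2% (24.1 to 26.3) of the 6235 windows under any KARPAS-45 RUNX2 summit, 14.4% (14.0 to 14.8) of the 28550 windows under none, and 16.3% of all 34785 windows, each position counted once. The intervals of the members and of all KARPAS-45 summits overlapped. By form, TGCGGT was in 15.3% of member windows, against 14.4% of windows under any KARPAS-45 summit and 3.96% of windows under none. TGTGGT was in 13.2%, against 12.2% and 10.7%. In the 40 windows the median distance from summit to nearest motif was 20 bp, 33 had a motif within 50 bp, and 8 had 2 or more. Wilson intervals here and below cover counting error only. The windows under members are a small and selected part, since 420 of the 8636 members off chromosome 8 (4.86%) lay within 1 kb of any annotated start, against 17.6% of the distal KARPAS-45-only peaks acetylated in both lines.

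As single peaks the members were of middling strength. Their median fold enrichment was 6.12 (95% interval of the median 6.02 to 6.30), with quartiles of 4.54 and 9.61 and a range of 1.34 to 60.8. Distal KARPAS-45-only peaks acetylated in both lines had a median of 5.45 (5.35 to 5.58) and those acetylated in neither line 5.71 (5.60 to 5.79). Distal peaks shared with PER-117 were stronger in the same KARPAS-45 list, with 9.64 (9.36 to 9.94) where both lines were acetylated and 12.0 (11.5 to 13.1) where KARPAS-45 alone was. A value of 20 or more was reached by 437 members (4.84%), by 82 (2.06%) of the KARPAS-45-only peaks acetylated in both lines, by 298 (2.76%) of those acetylated in neither, and by 850 (17.8%) of the shared peaks acetylated in both. Members were 274 bp wide at the median, against 273, 235 and 376 bp in the same 3 classes.

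**Figure D1:**
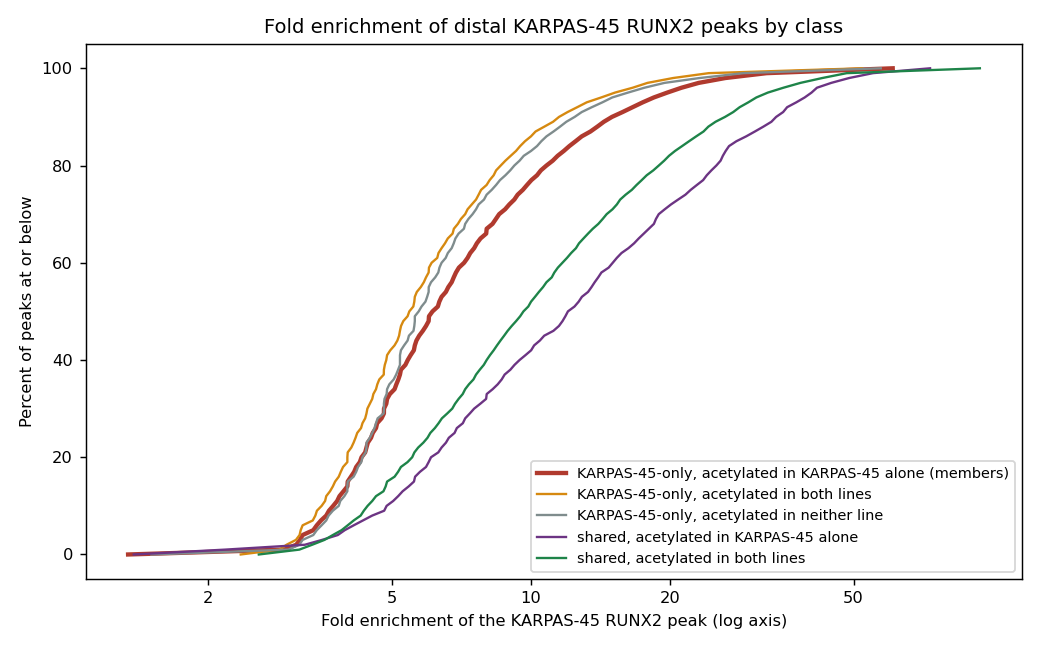
Cumulative percent of distal KARPAS-45 RUNX2 peaks (vertical axis) at or below a fold enrichment (horizontal log axis), by class, from 1 library. The members' curve, with a median of 6.12, lies right of both other KARPAS-45-only classes in its upper part. Except at its lowest end, it lies left of both shared classes, with medians of 12.0 and 9.64.

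The KARPAS-45 H3K27ac region around a member had a median width of 4198 bp, against 6749 bp for distal KARPAS-45-only peaks acetylated in both lines and 5832 bp for distal shared peaks acetylated in both. The median over all 63265 regions of that list, 1270 bp, counts each region once and is not weighted by peaks. Regions that held a member numbered 7051, or 11.1%, and 5944 of them held exactly 1. Only 95 regions held 5 or more, yet these had a median width of 62048 bp and took in 718 members. The widest concentration was a region of 368 kb at chr6:21798263-22166244 with 30 members, inside CASC15, a long non-coding RNA gene known from neuroblastoma susceptibility. The regions next in number of members follow, with 1 of chromosome 8 that held 18 left out. A region of 201 kb in GSE1 held 21, one of 142 kb at TRIM2, MND1 and TMEM131L 14, and one of 168 kb downstream of PTPRC 13. Regions of 76.0 kb at MYO7B and LIMS2, 130 kb at FAT1 and 91.0 kb at SERINC5 held 12 each.

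Private acetylation applied to the position of a member, not always to its whole region. For 5805 members (64.3%, 63.3 to 65.3) the KARPAS-45 region overlapped no PER-117 region, with a median width of 2551 bp. For the other 3218 (35.7%, 34.7 to 36.7) the region met a PER-117 region elsewhere along its length and was 13264 bp wide at the median. The median fold enrichment of the members was 6.41 in the first set and 5.71 in the second. The nearest PER-117 H3K27ac region was 12.3 kb away at the median and within 0.5 kb for 1130 members, and the nearest PER-117 RUNX2 peak was 31.1 kb away and within 1 kb for 172 (1.91%). KARPAS-45 H3K27ac regions covered 167 Mb and PER-117 regions 76.2 Mb, and the KARPAS-45 RUNX2 list was the longer one too, with 42911 peaks against 21027. The number of members was 3636 when the KARPAS-45 H3K27ac list was cut to its widest regions at the covered length of PER-117, and the part of read depth was not tested. The same rule with the lines exchanged gave 2947 PER-117 peaks, or 14.0% of that list, called counterparts below. Of the members, 1692 (18.8%) lay in KARPAS-45 regions with a −log10 q under 2, against 27.3% of all regions of that list. The second share counts each region once and the first counts members, so the 2 are not weighted alike.

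Most members were intragenic. Inside protein-coding gene spans were 5575 (61.8%, 60.8 to 62.8), only in a non-coding gene 1006 (11.1%), and in no annotated gene 2442 (27.1%). The intragenic share was 68.9% (67.5 to 70.4) for distal KARPAS-45-only peaks acetylated in both lines and 50.3% (49.3 to 51.2) for those acetylated in neither. The median distance to the nearest protein-coding gene end was 24464 bp, against 14905 and 31904 bp, and 1487 members (16.5%) were over 100 kb away. At the 1 kb limit of the rule, the members next outside it lay 1001 bp from ALG1 (fold enrichment 15.4) and 1003 bp from LPCAT1 (13.2), and the nearest peaks left out lay 1000 bp from ZNF85 (5.00) and 998 bp from TMEM26 (5.16). The 255 members at 1 to 1.5 kb had a median of 5.60 and the 362 peaks at 0.5 to 1 kb that met the other conditions 5.25.

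The 10 strongest members ranked 44 to 117 among all KARPAS-45 RUNX2 peaks, and 9 of them are named here. The strongest, at 60.8, lay inside HSDL1, a dehydrogenase-like gene, at chr16:84128357-84128846 in an H3K27ac region of 5150 bp, 6.53 kb from the nearest PER-117 region. Next were 56.4 near LOC101929773 (region of 6850 bp), 55.2 near the RNA-binding protein gene RBMX2 (27455 bp), 55.1 in ZNF584 (6211 bp), 54.8 in WDR27 (10197 bp), 54.4 in the mitochondrial acyl-CoA synthetase gene ACSF3 (14147 bp) and 54.4 in IQCH (2986 bp). HDAC4, a class II histone deacetylase, had 53.1 in a region of 4364 bp, and EHMT1, a histone H3 lysine 9 methyltransferase, 53.0 in a region of 3074 bp, with the peak 0.747 kb from a PER-117 region. Of these 9 genes, HDAC4 collected 29 members, ACSF3 and RBMX2 5 each, and the other 6 collected 1 to 4.

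Each member was given to the protein-coding gene whose span held it or, between genes, to the gene with the nearest end, which is an assignment by position and not by target. Of 19974 protein-coding genes, 4144 collected at least 1 member (20.7%), 377 collected 5 or more (1.89%) and 91 collected 10 or more (0.456%). The 377 genes held 3147 members (34.9%), while 2412 genes had exactly 1. Among members with a −log10 q of 10 or more, 116 genes collected 5 or more, and among members in regions without PER-117 overlap 193 did, with 10 of the leading 25 genes still among the leading 25. Collecting genes were long: their median span was 142 kb against 24.2 kb for all, and 5 or more members were found at 0.523% of genes under 20 kb, 1.09% of those of 20 to 100 kb, 6.55% of those of 100 to 300 kb and 10.1% of longer ones. With 5 or more distal shared peaks acetylated in both lines there were 101 genes (0.506%), and with 5 or more counterparts 87 (0.436%). Of the 377 genes, 4 also had 5 or more counterparts (1.06%, against 0.436% of all genes), which is 4.60% of the 87, against the 1.89% of all genes with 5 or more members; MYT1L, PARD3 and LOC124904970 were 3 of these and were picked out after their values were seen. Any counterpart was found at 71 of the 377 (18.8%), against 8.86% of all genes.

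**Figure D2:**
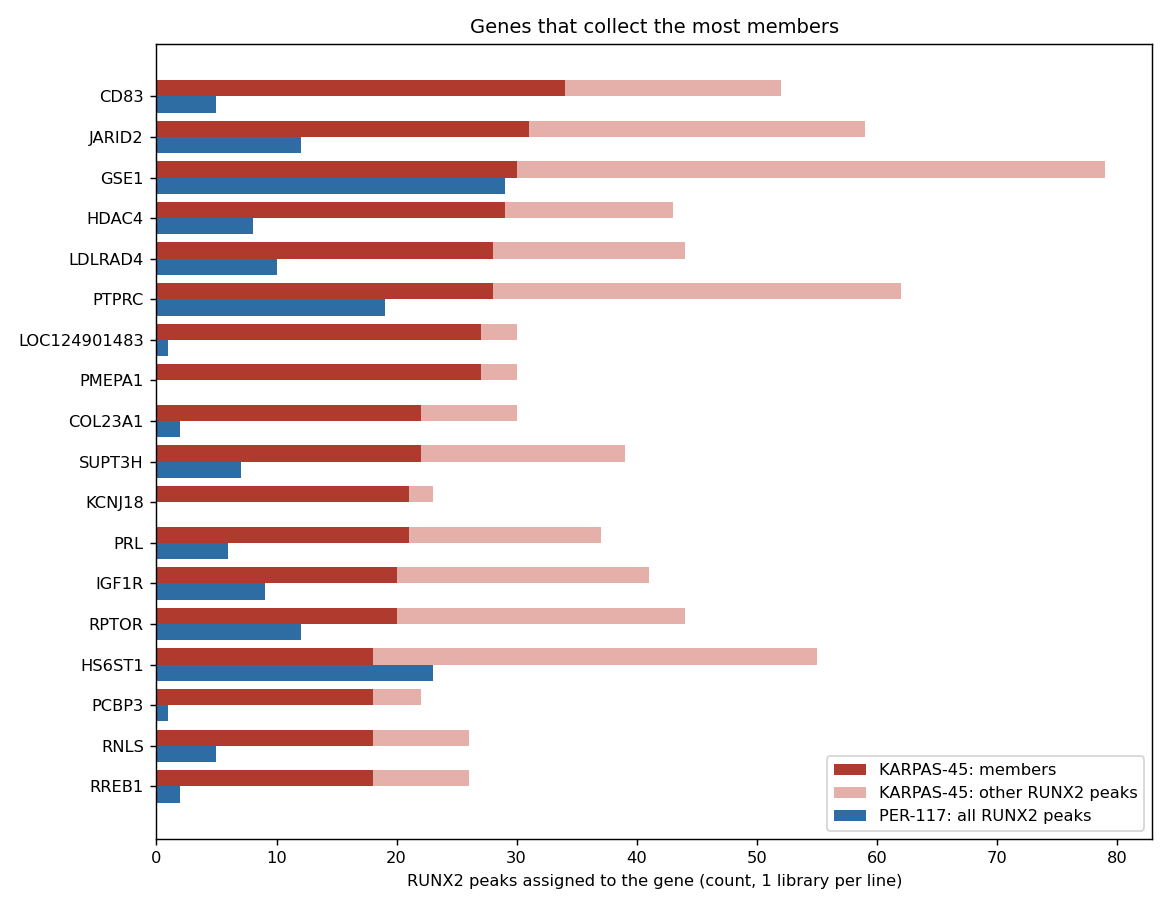
RUNX2 peaks assigned to each of the 18 genes with 18 or more members (count, 1 library per line), genes of chromosome 8 left out. Upper bars give KARPAS-45 peaks, split into members (dark) and others (pale), and lower bars all PER-117 peaks. Members lead at CD83 with 34 of 52 KARPAS-45 peaks, while PMEPA1 and KCNJ18 had 0 PER-117 peaks.

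The cell surface genes CD83 and PTPRC collected members over long downstream stretches. CD83, an immunoglobulin-family protein of activated dendritic cells and lymphocytes (chr6:14117256-14136918), had 34 members among 52 KARPAS-45 peaks, against 5 PER-117 peaks. Inside the gene were 2, upstream 1 and downstream 31, out to 545 kb, with fold enrichments of 3.30 to 20.3 and a median of 6.77. Across its locus, meaning the gene and its members, H3K27ac covered 351 kb in KARPAS-45 and 32.0 kb in PER-117. Members were chosen inside KARPAS-45 and outside PER-117 H3K27ac, so such contrasts, here and at the loci below, are partly built in. PTPRC, which encodes the leukocyte phosphatase CD45 (chr1:198638713-198757476), had 28 members of 62 KARPAS-45 peaks, against 19 PER-117 peaks. There 26 were downstream, out to 538 kb, the strongest at 18.6, and H3K27ac covered 484 kb in KARPAS-45 and 95.4 kb in PER-117.

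JARID2, GSE1 and HDAC4, with roles in chromatin, ranked between CD83 and PTPRC, and SUPT3H, RREB1, ARID5B and BCL11B ranked lower. JARID2, a subunit of the Polycomb complex PRC2, had 31 members of 59 KARPAS-45 peaks, against 12 PER-117 peaks, with 12 inside and 19 upstream. Its upstream members, with a run from chr6:14697124, lie in the same stretch between genes as the downstream members of CD83. The nearest-end rule divides that stretch between CD83 and JARID2, so their counts there are not of separate groups. GSE1, reported as a component of a histone deacetylase complex, had 30 of 79, against 29 in PER-117, all inside the gene. HDAC4 had 29 of 43, against 8, with 20 of them upstream. SUPT3H, a subunit of the SAGA coactivator complex whose gene borders RUNX2, had 22 of 39, against 7. RREB1, a zinc finger factor of Ras and TGF-beta responses, had 18 of 26, against 2, and ARID5B, a DNA-binding cofactor linked to lymphoblastic leukemia risk, 17 of 27, against 3. BCL11B, the factor that commits precursors to the T lineage, had 16 of 51, against 15, with 11 downstream, out to 1037 kb into the gene desert known to hold its enhancers.

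A pair of TGF-beta signalling inhibitors were among the 10 genes with the most members: PMEPA1 and LDLRAD4, related membrane proteins that bind SMAD2 and SMAD3. PMEPA1 (chr20:57648396-57711472) had 27 members of 30 KARPAS-45 peaks, against 0 PER-117 peaks, with 10 inside and 17 upstream. Their fold enrichments ran from 3.15 to 36.6, and H3K27ac covered 192 kb of the locus in KARPAS-45 and 0.386 kb in PER-117. The NKILA window printed above lies in this locus, where the RefSeq table also places starts of PMEPA1 itself (3.15) and of LOC105372692 (5.70) under members. LDLRAD4 had 28 of 44, against 10, and 25 of them were inside.

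Among growth signalling genes, IGF1R, the insulin-like growth factor 1 receptor, had 20 members of 41 KARPAS-45 peaks, against 9 PER-117 peaks, all inside the gene and with the strongest at 42.5. H3K27ac covered 276 kb of it in KARPAS-45 and 28.1 kb in PER-117. RPTOR, the scaffold of mTORC1, also had 20, of 44 peaks against 12, all inside. The exocyst gene EXOC4 and the atypical cadherin gene FAT1 had 17 each, of 24 and 22 peaks against 5 and 2, and the FAT1 locus had 139 kb of H3K27ac in KARPAS-45 and 0 kb in PER-117.

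The other genes named among the 25 have varied roles in metabolism, matrix and membranes. COL23A1, a transmembrane collagen, had 22 of 30 KARPAS-45 peaks, against 2 PER-117 peaks, and PCBP3, an RNA-binding protein gene, 18 of 22, against 1. HS6ST1, a heparan sulfate sulfotransferase gene, had 18 of 55, against 23, all upstream and out to 788 kb. RNLS, the renalase gene, had 18 of 26, against 5. KCNJ18, a potassium channel gene nearly identical to KCNJ12, had 21 of 23, against 0, but 20 of them lay downstream, out to 772 kb. The 27 members given to LOC124901483 and the 21 given to PRL, the prolactin gene, lay outside both genes and are mostly those of CASC15, whose span held 45. Of other non-coding spans, MIR99AHG held 14, the T-cell receptor beta locus 13 of 22 KARPAS-45 peaks against 8 PER-117 peaks, and DLEU1 11.

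**Figure D3:**
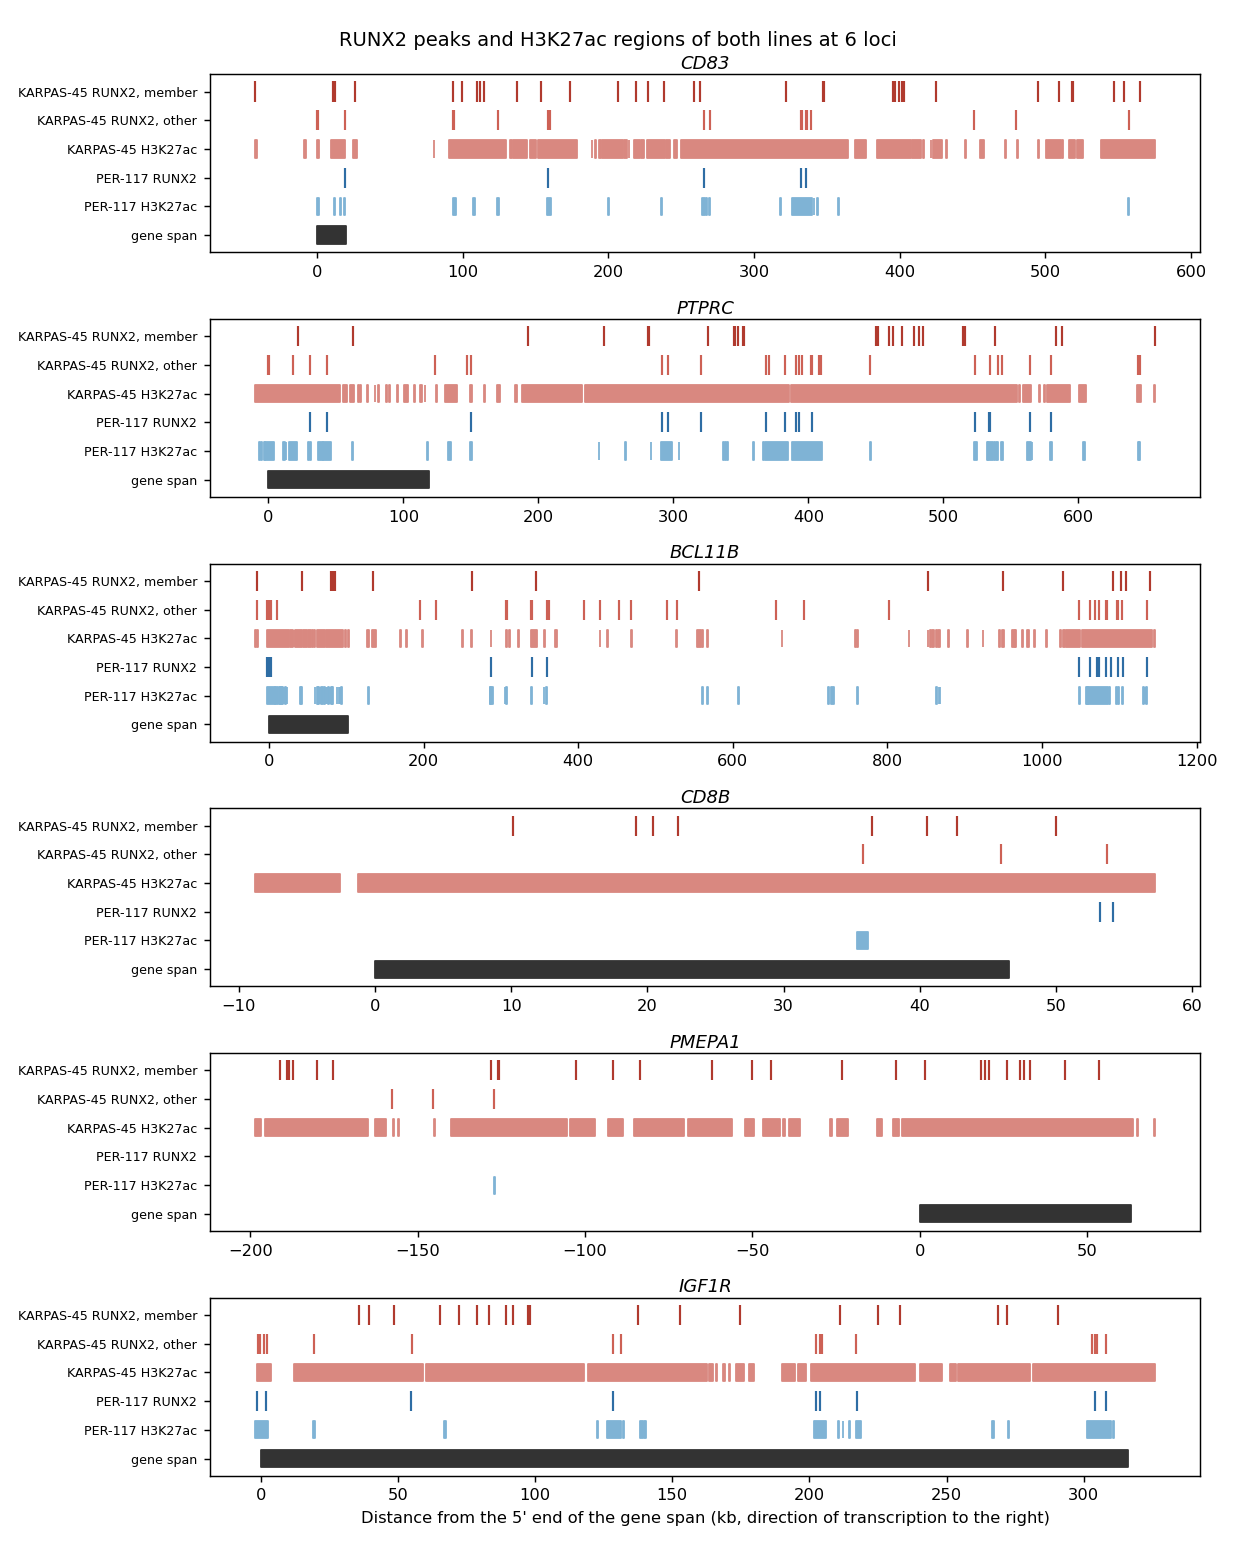
RUNX2 peaks and H3K27ac regions of both lines at 6 loci, drawn as distance in kb from the 5′ end of the gene span with transcription to the right. Members line up with broad KARPAS-45 H3K27ac downstream of CD83 and PTPRC, both upstream and inside PMEPA1, and inside CD8B and IGF1R, where PER-117 H3K27ac covers less; PER-117 RUNX2 peaks are absent from the PMEPA1 panel and the 2 in the CD8B panel lie beyond the gene's 3′ end.

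Members also came in close runs. With neighbours joined within 12500 bp, the 9023 members formed 6661 runs, of which 5194 were single members, and 87 runs of 5 or more held 562 (6.23%). The median gap between neighbours was 50.9 kb. The longest run lay at VIPR2, a receptor for vasoactive intestinal peptide, with 12 members in 63.1 kb, 7 of them inside the gene. Of this run 98.2% was acetylated in KARPAS-45 and 0 kb in PER-117, and it held 1 PER-117 RUNX2 peak. GSE1 held 12 in 57.7 kb, and the myosin gene MYO7B 11 in 47.0 kb, SERINC5, which encodes a membrane protein that restricts retroviruses, 11 in 41.9 kb, and the stretch upstream of JARID2 11 in 47.1 kb. In windows of 5 Mb the median was 11 members, and the most were 88 of 189 KARPAS-45 peaks at 55 to 60 Mb of chromosome 15, where ZNF280D had 16, LIPC and TCF12 15 each, ADAM10 9 and AQP9 8. Chromosome 20 at 55 to 60 Mb had 63 of 127, with PMEPA1, BMP7 (13) and CIMIP1 (11), the last 2 chosen after their values were seen. By chromosome, members were 29.7% (26.8 to 32.7) of distal KARPAS-45-only peaks on chromosome 9 and 44.6% (39.9 to 49.5) on chromosome 21, the lowest and highest.

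The rule for members did not use the ends of the collecting genes, but 1 H3K27ac region can hold both members and a gene end. At CD8B, 1 KARPAS-45 region held all 8 members and both ends of the gene. The H3K27ac shares below are therefore not independent of the rule, and the size of this part was not tested. A KARPAS-45 H3K27ac region without a PER-117 one lay within 1 kb of an end of 113 of the 377 genes (30.0%, 25.6 to 34.8), against 9.18% of all protein-coding genes. Both lines were acetylated at 219 (58.1%), against 51.9% of all genes, PER-117 alone at 3 and neither at 42. The KARPAS-45-only share was 14.7% (13.6 to 15.8) for the 3767 genes with 1 to 4 members and 7.38% (6.98 to 7.80) for genes with none. It was 7.92% (4.07 to 14.9) for genes with 5 or more shared peaks acetylated in both lines, and 24.4% (20.1 to 29.1) for genes with 5 or more KARPAS-45-only peaks acetylated in neither, an interval that overlaps that of the 377. For genes with 5 or more counterparts it was 4.60%, and PER-117 alone was acetylated at 25.3% of them. RUNX2 itself had a KARPAS-45 peak and no PER-117 peak within 1 kb of an end at 146 of the 377 (38.7%, 33.9 to 43.7), against 27.7% (26.3 to 29.1) of genes with 1 to 4 members and 19.2% of all genes. It was 31.2% (26.6 to 36.3) for genes with 5 or more KARPAS-45-only peaks acetylated in neither line, an interval that overlaps that of the 377. Both lines had such a peak at 117 (31.0%), against 29.2% of all genes. These gene-end calls come from the same libraries as the members and share their list lengths.

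**Figure D4:**
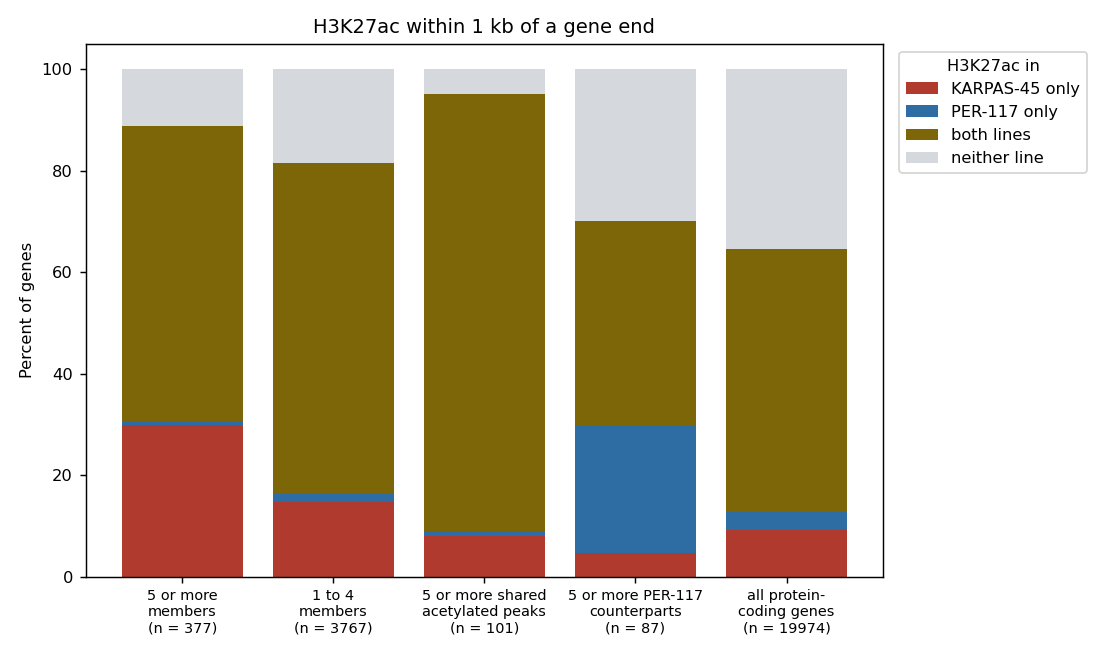
Percent of genes (vertical axis) with H3K27ac within 1 kb of a gene end in KARPAS-45 only, PER-117 only, both lines or neither, for 5 sets of protein-coding genes. The KARPAS-45-only part is 30.0% for genes with 5 or more members, 14.7% with 1 to 4 and 9.18% for all genes.

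The loci of the 377 genes span members that were chosen outside PER-117 calls, so lower PER-117 coverage there is partly built in and is given as a description. Across these loci H3K27ac covered a median of 65.4 kb in KARPAS-45 and 6.54 kb in PER-117. At 58 loci (15.4%) there was no PER-117 H3K27ac at all, and at 42 neither PER-117 mark. After their values were seen, 4 of these 42 are named, each with 0 kb in PER-117. SYNE2 had 14 members of 15 KARPAS-45 peaks and 122 kb of H3K27ac, the butyrylcholinesterase gene BCHE 11 of 14 and 104 kb, CIMIP1 11 of 17 and 59.5 kb, and the centrosome gene NINL 11 of 13 and 107 kb.

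Genes of T-cell biology, and for contrast bone targets and markers of other cell types, were then read from 19 lists. Of the 333 genes in all lists together 124 (37.2%) collected a member, against 20.7% of all protein-coding genes. Cortical thymocyte genes, which mark the stage at which CD4 and CD8 are both expressed, had a member at 9 of 17. They had a counterpart at 0 of 17, against 8.86% of all genes, and the T-ALL oncogene and bone lists also had 0. Ends of the cortical thymocyte genes were acetylated at 14 of 17 in KARPAS-45 and 7 of 17 in PER-117. The list's median span was 17.1 kb, below the 24.2 kb of all genes. CD8B, the beta chain of CD8, had 8 members of 10 KARPAS-45 peaks, against 0 in PER-117, with fold enrichments in genomic order of 4.01, 5.33, 10.4, 20.8, 16.4, 5.60, 8.89 and 6.01 (chr2:86811820 to 86851892). CD8A beside it had 4 members of 5 KARPAS-45 peaks, against 2 in PER-117, where RUNX2 was also called at an end of the gene. The 4 were at 6.01, 7.61, 3.83 and 8.01, those at 7.61 and 3.83 being the ones at the CD8A starts described above. Of the 12 members of the pair, 3 exceeded 10, all of them inside CD8B.

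DNTT, the template-free DNA polymerase of receptor rearrangement, had 4 members at 6.39, 19.2, 16.4 and 8.75, of 7 KARPAS-45 peaks against 0 in PER-117. THEMIS, a thymocyte selection protein, had 8 members of 12 peaks, against 1, and ARPP21, a phosphoprotein gene active in cortical thymocytes, 11 of 26, against 3, with just 2 inside it and others out to 550 kb. The ends of CD8A, CD8B, DNTT and THEMIS were acetylated in KARPAS-45 and not in PER-117. CD4, RAG1 and RAG2, named after their values were seen, had no member, and CD4 carried end acetylation in KARPAS-45 but not PER-117.

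Transcription factors of the T lineage had a member at 20 of 30 and 110 members in all, led by BCL11B, then TCF12 with 15, FOXP1 and NFATC1 with 13 each. TCF12 encodes an E protein, and its 15 members were of 30 KARPAS-45 peaks, against 5 in PER-117. FOXP1, a forkhead factor of lymphocyte quiescence, had 13 of 25, against 3, and NFATC1, a calcium-responsive factor, 13 of 21, against 4, all inside and up to 29.6. Counterparts were found at 14 of the 30 genes, and the list's median span was 109 kb. At genes of 100 to 300 kb as a whole, 40.6% collected a member, and the part of gene length in the list's count was not tested.

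RUNX family and partner genes had a member at 8 of 11. RUNX1 had 11 of 40 KARPAS-45 peaks, against 18 PER-117 peaks, 9 inside and the strongest at 26.6. The corepressor genes CBFA2T3, CBFA2T2 and TLE4 had 9, 6 and 5, with one CBFA2T3 member at 38.6 (chr16:88942863-88943674). RUNX2 itself, named after its values were seen, had 2 members of 20 KARPAS-45 peaks, against 12 PER-117 peaks, at 5.01 and 11.1. The list's median span was 106 kb.

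Known targets of KMT2A fusions had a member at 13 of 22, with SUPT3H (22), ARID1B and CDK6 (7 each) and MBNL1 (6) at the head. Counterparts were at 6 of the 22, and the list's median span was 137 kb. Of all genes of 100 to 300 kb, 40.6% collected a member, and the part of gene length was not tested here either. MEIS1, named after its values were seen, had 3 members of 14 KARPAS-45 peaks, against 0 PER-117 peaks, the strongest being the 19.4 at the MEIS1-AS3 start printed above. HOXA5, HOXA7, HOXA9 and HOXA10 of the same list, also named after their values were seen, had 0 RUNX2 peaks in either line. Their ends were acetylated in neither line. Homing and adhesion genes had a member at 11 of 21. CXCR4, the chemokine receptor for CXCL12, had 13 of 27, against 14, all outside the gene, and ITGA4, the integrin alpha 4 chain, 8 of 12, against 4. Genes of T-cell receptor signalling had a member at 11 of 22, but beyond PTPRC they held few: FYN 3, CD247 2 and CD3D 1. Surface receptors had a member at 8 of 22, led by CD226 with 6 of 14, against 4, and CD6 with 5 of 6, against 0.

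NOTCH pathway genes had a member at 6 of 17, with 9 at ADAM10, the protease that cleaves NOTCH receptors, 6 at FBXW7, and 4 each at HES1 and NOTCH3, where 1 reached 31.2. Survival and cell cycle genes had one at 8 of 19, among them CCND3 with 5, and BCL2 and BCL2L11 with 4 each. Actin and Rac effectors had one at 7 of 14, with 5 at EVL, 3 at WIPF1 and 2 each at ARHGAP15 and DOCK10. Their median span was 148 kb, and 40.6% of all genes of 100 to 300 kb collected a member. Progenitor genes had one at 6 of 19, where IGF1R had 20, MSI2 14, CD34 3 and BCL11A 2, and counterparts at 8 of 19. Interleukin receptor and JAK-STAT genes had a member at 7 of 27 and a counterpart at 9 of 27, with at most 2 members a gene, as at IL10RA and SOCS3, and 1 at IL2RB and IL6R.

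Lists of bone targets and of other cell types held a member at 6.25% to 16.7% of their genes, against 20.7% of all genes and 10.2% of genes under 20 kb. Their median spans were mostly short too, with 7.64 kb for erythroid and megakaryocyte, 8.23 kb for non-blood, 10.0 kb for myeloid, 10.5 kb for NK, 13.5 kb for bone and 21.9 kb for B-cell genes. Bone targets of RUNX2 had a member at 2 of 12, PHEX with 5 (up to 20.6, PER-117 peaks 0) and SOST with 1. B-cell markers had one at 2 of 14, BLNK with 2 and VPREB1 with 1. Myeloid markers had 1 each at ITGAM and ITGAX, of 16 genes, and erythroid and megakaryocyte markers 1 each at ITGA2B and TFRC, of 14. NK and cytotoxic markers had one at 2 of 14, GZMB with 4 (up to 36.1) and CST7 with 1, and non-blood markers at 1 of 16, KRT8 with 2. T-ALL oncogenes had one at 3 of 14, MYB with 3, and TLX3 and PICALM with 1 each, at 25.1 and 17.2. Of 6 defining T-cell markers all 6 carried H3K27ac at an end in KARPAS-45, against 5 in PER-117, where CD5 lacked it. The 4 myeloid markers carried it in neither line, and of 3 erythroid markers 0 carried it in KARPAS-45 and 1, GATA1, in PER-117. The B-cell markers MS4A1 and PAX5 carried it in neither line and CD79A in both, and of 3 NK markers GNLY carried it in both lines. By count, though not always as a share, the longer lists held more acetylated ends than these few markers. In KARPAS-45 and PER-117 they were at 2 and 4 of 16 myeloid and 4 and 7 of 14 erythroid and megakaryocyte genes. For B-cell genes they were at 6 and 8 of 14, and for NK and cytotoxic genes at 4 and 6 of 14.

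**Figure D5:**
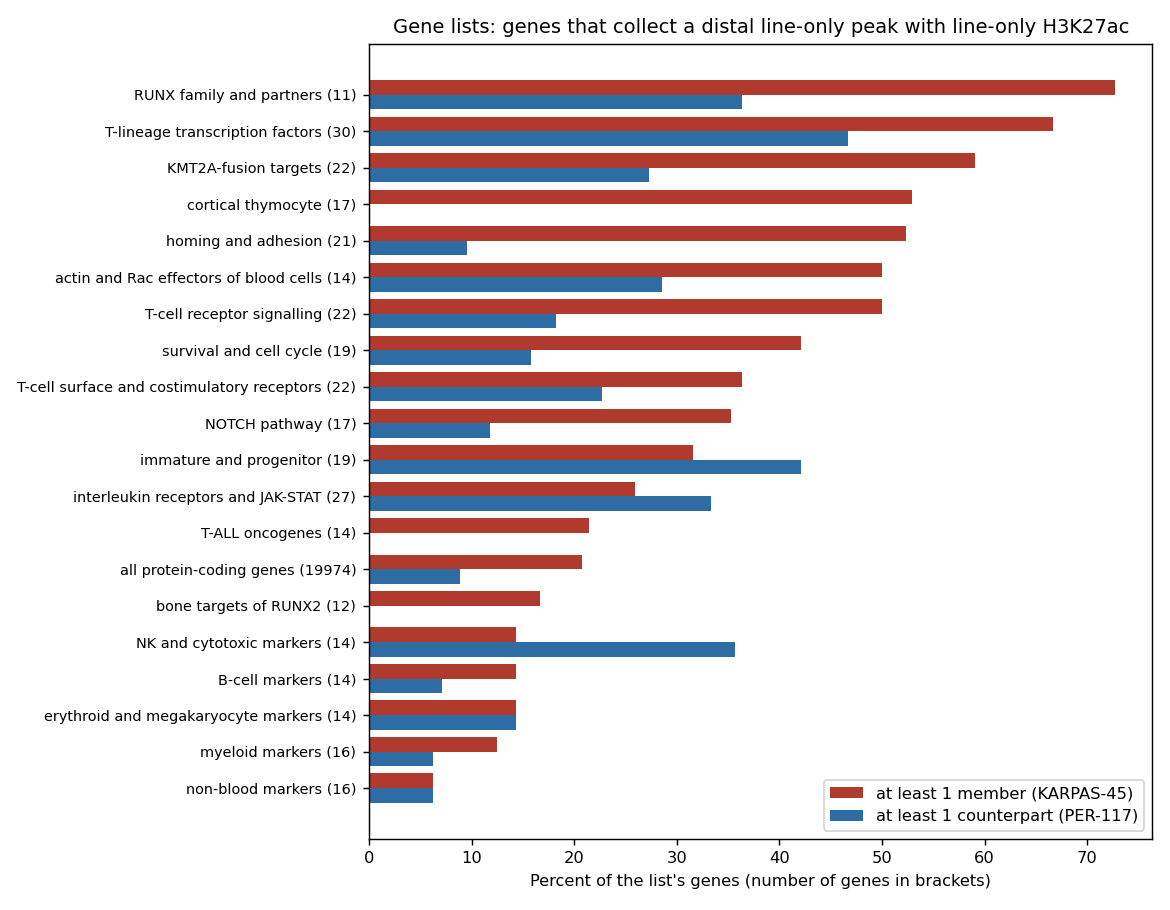
Percent of the genes of each list (horizontal axis, number of genes in brackets) with at least 1 member in KARPAS-45 (upper bar) or at least 1 counterpart in PER-117 (lower bar). All protein-coding genes stand at 20.7% and 8.86%; cortical thymocyte genes stand at 52.9% and 0%, and non-blood markers at 6.25% in both.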

How the data were processed

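RUNX2 and H3K27ac peaks of KARPAS-45 and PER-117 were used, 1 library per line and antibody, and the 3 input libraries were not analysed here. Per the submitters' processing notes, STAR 2.4.2a, MACS2 and the build hg38 were used; what each did, its parameters and the input libraries set against each ChIP are not stated there. The authors deposited, per peak, a display score, a fold enrichment (a linear ratio) and −log10 p and q. Fold enrichments are the authors' values and rank peaks within 1 list. Read depth is unknown, so an uncalled site is one not called at an unknown depth.

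Chromosomes 1 to 22 and X were kept. KARPAS-45 RUNX2 lines with the same interval were joined, keeping the highest fold enrichment, which left 42911 of 46275 lines, and 21027 of 23043 in PER-117. Genes came from the RefSeq table of GRCh38.p14, with 19974 protein-coding genes, and starts and sequences from its promoter table, which has no entry for chromosome 8 here. The planned motif analysis around all summits was not run, since no genome was used. Shares have Wilson 95% intervals and medians order-statistic intervals. No test, and so no p-value, was computed.

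The members and gene lists were chosen with earlier results of these data known. Named genes are the 25 with the most members, those of the 10 strongest members and 5 longest runs, and up to 4 per list, except on chromosome 8, and some of them are not reported here. Tables were made with pandas 2.3.3 and numpy 2.4.6 under Python 3.11.15, intervals with scipy 1.17.1, and figures with matplotlib 3.10.9. The overlap code was tested on 800 simulated peaks with 0 mismatches. In all, 13 alternative settings were tried.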

Additional observations from a re-analysis of the deposited data

How the results depend on the processing

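No result has a test, and moved values are given by setting. For the number of members (9023) and the genes collecting 5 or more members (377), a RUNX2 −log10 q of 10 or more gave 4427 and 116, and the 5379 widest KARPAS-45 H3K27ac regions, which cover as much as the PER-117 list, 3636 and 188. The collecting genes with gene-end H3K27ac in KARPAS-45 only (113) were 39 and 43 under the same 2 settings, the median fold enrichment of members (6.12) was 9.70 and 6.01, and list genes collecting a member (124) were 74 under the second. For members in groups, the 87 runs of 5 or more became 13 at the −log10 q of 10 and 20 with neighbours within 5 kb. The share of members inside protein-coding gene spans (61.8%) was 63.2% with gene ends of any biotype, 60.5% with margins of 1 kb and 500 bp around PER-117 calls, 60.7% with whole peaks, 67.2% in the widest regions and 63.1% with H3K27ac −log10 q of 2 or more.

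Added after seeing the data were 3 settings. The number of members at or above the list's median fold enrichment was 4311, with 103 collecting genes, 37 of them with KARPAS-45-only ends, a median of 9.87 and 7 runs. In KARPAS-45 regions that overlap no PER-117 region it was 5805, with 193 collecting genes, a median of 6.41, 57.9% inside genes and 34 runs. Leaving out members within 1 kb of any annotated start gave 360 collecting genes, with 23 of the leading 25 still among the leading 25, and the count of 1 named gene moved by over 1.5 times.

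Of the 25 genes with the most members, 19 stayed among them at a −log10 q of 10, 19 in the widest regions, 16 at the higher fold enrichment and 10 in regions without PER-117 overlap. Of 1092 member counts of named genes under 12 settings, 804 kept within 1.5 times and 288 did not. A motif window of 50 bp was not run, since no genome was used. No paired analysis was possible because each line has 1 library per antibody. The unknown depth limits every absence from PER-117, and the higher floor of its H3K27ac list limits every absence of acetylation.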

Other observations

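The antigen receptor loci differed in how many members they held. The T-cell receptor beta locus (chr7:142299011-142813287) had 13 members among 22 KARPAS-45 RUNX2 peaks, with fold enrichments of 3.16 to 28.2, against 8 PER-117 peaks with 2 counterparts. The gamma locus had 6 members of 10 peaks, against 3 PER-117 peaks with 0 counterparts, and its strongest member had 7.21. The alpha locus had 2 members of 17 peaks, against 15 PER-117 peaks with 4 counterparts. At the immunoglobulin heavy chain locus there were 0 members of 20 KARPAS-45 peaks, against 52 PER-117 peaks with 34 counterparts, and the immunoglobulin lambda locus had 1 member of 23, against 9 PER-117 peaks with 0 counterparts. These loci were picked out after their values were seen.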
